A study of Gallus gallus with 26 samples.

Results

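The cartilage collagens are the chains that build the thin collagen fibrils of hyaline cartilage: *COL2A1*, *COL9A1*, *COL9A2*, *COL9A3*, *COL11A1* and *COL27A1*. They were taken from the RNA-seq table by their gene symbols, and 5 of the 6 symbols had a row among the 15984 genes of the table. No row carried the symbol *COL11A1*, which encodes a chain of collagen XI, so this gene was not analysed here. All 5 genes found averaged 10 normalized counts or more over the libraries, the threshold for testing, which 11928 genes passed in all.

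Collagen II, made of 3 identical *COL2A1* chains, is the main fibril-forming collagen of cartilage and is secreted by chondrocytes. Collagen XI sits inside the same fibrils and limits their width, while collagen IX, a trimer of one *COL9A1*, one *COL9A2* and one *COL9A3* chain, is cross-linked to their surface and belongs to the FACIT collagens (fibril-associated collagens with interrupted triple helices). Collagen XXVII, made of *COL27A1* chains, is a further fibrillar collagen found in cartilage. In the digit, cartilage is laid down as a continuous rod, and the cells at the site of a future joint then form the interzone, a dense layer in which chondrocyte genes are known to be turned down.

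Poly(A)-RNA was sequenced from White Leghorn chick embryos incubated for 7.5 days, to stage HH32. The interzone group comprised 3 libraries of the joint interzone dissected from digit 3 of the hindlimb, and the phalange group comprised 3 libraries of the adjacent proximal part of the phalange. The sources name no treatment or mutation, so the groups differ in the tissue dissected. The study names the libraries as biological replicates, but the number of embryos behind each RNA library is not given in the sources used here.

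Between 12431285 and 14347148 reads per library fell on genes, so the 2 tissues were sequenced to a similar depth. Among 9 interzone markers, 8 had a log2 difference above 0 and 5 had every interzone library above every phalange library, including *GDF5*, the growth factor that marks the early joint. That pattern was found for 5.86% of all tested genes. *COL10A1*, the marker of hypertrophic cartilage, was listed at 0 in all 3 phalange libraries and had 1.88 normalized counts in interzone 3 only. Markers of other tissues varied between libraries of the same tissue. Skeletal muscle markers summed to between 2567 and 10468 normalized counts in interzone and between 649 and 3770 in phalange. All 7 tested were above 0 in their log2 difference, and 2 of them did not overlap, again against 5.86% of all tested genes. *MYL1*, which was among those 2, had 1064, 352 and 953 normalized counts in interzone 1, 2 and 3, against 250, 25.2 and 14.4 in phalange 1, 2 and 3. The muscle myosin gene *MYH1E* was too low to be tested. It had 12.5, 1.03 and 2.82 in interzone 1, 2 and 3, against 0, 0 and 1.91 in phalange 1, 2 and 3. The summed blood cell markers of interzone 1, 2 and 3 were 33499, 1483 and 51088, and those of phalange 1, 2 and 3 were 39410, 694 and 8242. The tissues were cut by hand, and in such bulk samples fewer chondrocytes and less collagen RNA per chondrocyte cannot be told apart.

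All 5 cartilage collagens were lower on average in interzone than in phalange, with log2 differences between -2.44 and -1.40. For 3 of them every interzone library lay below every phalange library, a pattern found for 5.11% of all tested genes in this direction and for 5.86% in the other. *COL9A1* and *COL9A3* overlapped between the tissues because interzone 2 exceeded phalange 1. None of the 5 was called by limma on the deposited values (adjusted p under 0.05 and a log2 difference beyond 0.5), where 0.0252% of all tested genes were called lower and 0% higher in interzone. At an unadjusted p under 0.05 limma gave 4 of the 5, against 2.74% of all tested genes in that direction. DESeq2, the tool named in the study's methods, called 2 of the 5 (*COL2A1* and *COL27A1*) when run on the recovered reads of all genes. Of the 12799 genes to which it gave an adjusted p, 0.477% were called lower and 0.906% higher in interzone. The quasi-likelihood test of edgeR called none of the 5 and 1 gene in all.

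**Figure D1:**
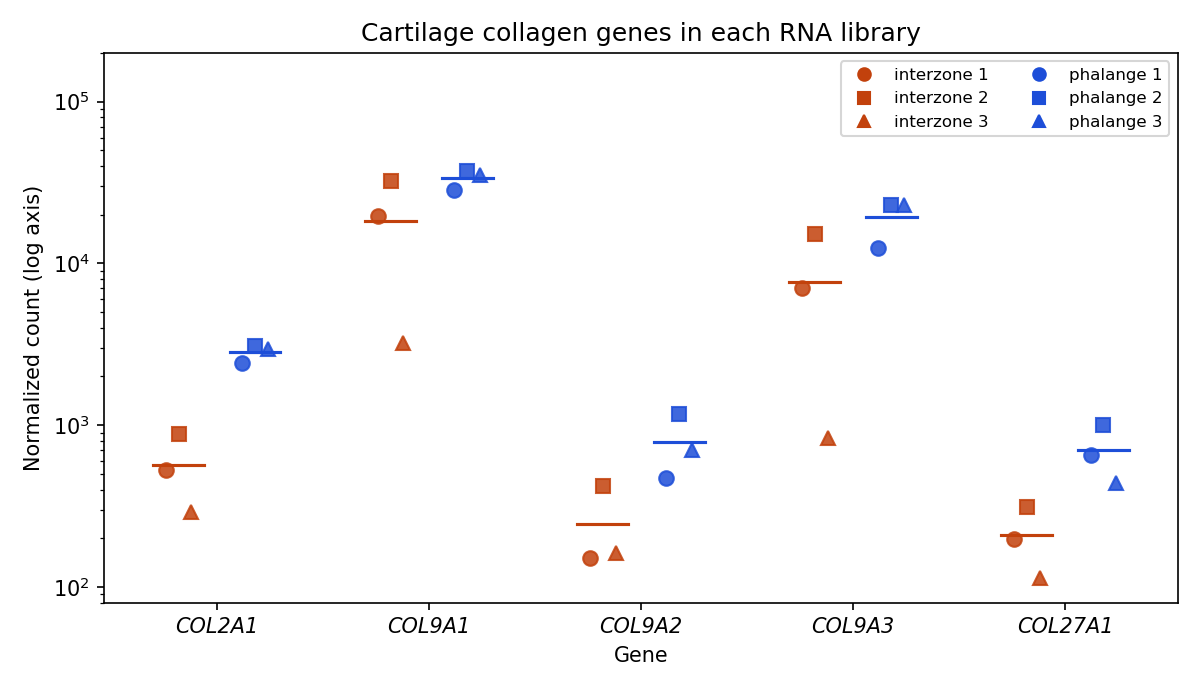
Normalized counts (log axis) of the 5 cartilage collagen genes in each RNA library, interzone in orange and phalange in blue, with a symbol for each replicate number and a horizontal line at the mean of the 3 libraries. *COL2A1*, *COL9A2* and *COL27A1* do not overlap between the tissues, and interzone 3 stands far below the other libraries for *COL9A1* (3241) and *COL9A3* (830).

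*COL2A1*, the chain of collagen II, had 525, 885 and 292 normalized counts in interzone 1, 2 and 3, against 2417, 3083 and 2948 in phalange 1, 2 and 3. The tissues were well apart, since the lowest phalange library held 2.73 times as much as the highest interzone library. On average *COL2A1* reached 567 ± 299 in interzone and 2816 ± 352 in phalange (SD, n = 3 each), a 4.96-fold higher mean in phalange. The spread was wider in interzone, with a coefficient of variation of 52.7%, against 12.5% in phalange. In limma the log2 difference was -2.44 (SE 0.38, adjusted p = 0.119), and its unadjusted p ranked 12 among the 11928 tested genes. DESeq2 called *COL2A1* lower in interzone (log2FC -2.31, SE 0.40, adjusted p = 3.7e-06). When single libraries were left out, an alternative chosen after seeing the data, DESeq2 called it every time, with adjusted p between 2.3e-13 and 8.4e-04. The exact permutation test over the 6 libraries gave p = 0.1 (two-sided), the smallest p that 3 against 3 libraries can give.

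*COL27A1*, the chain of collagen XXVII, had 197, 313 and 114 normalized counts in interzone 1, 2 and 3, against 651, 1009 and 437 in phalange 1, 2 and 3. All 3 interzone libraries were lower than all 3 phalange libraries, and the gap between the nearest libraries was 1.4-fold. The means were 208 ± 99.9 in interzone and 699 ± 289 in phalange (SD, n = 3 each), with a log2 difference of -1.78 in limma (SE 0.47, adjusted p = 0.495). DESeq2 called the gene lower in interzone (log2FC -1.75, SE 0.50, adjusted p = 0.0352). With single libraries left out, the log2FC of DESeq2 stayed between -2.16 and -1.39. The call was kept without interzone 2 (adjusted p = 0.00292) and without phalange 3 (0.0216), and was lost without interzone 1 (0.165), interzone 3 (0.105), phalange 1 (0.0962) or phalange 2 (0.361). The exact permutation test gave p = 0.1, again the smallest possible.

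Collagen IX contributed 3 genes, which did not vary alike. *COL9A2* had 151, 421 and 163 normalized counts in interzone 1, 2 and 3, against 474, 1177 and 704 in phalange 1, 2 and 3. The groups did not overlap, but interzone 2 came within 1.13-fold of phalange 1. The means were 245 ± 153 in interzone and 785 ± 358 in phalange (SD, n = 3 each), with a log2 difference of -1.74 in limma (SE 0.50, adjusted p = 0.515). DESeq2 did not call *COL9A2* with all libraries (log2FC -1.68, adjusted p = 0.0892), but did so without interzone 2 (adjusted p = 3.2e-04) and without phalange 1 (adjusted p = 0.0416). Its exact permutation p was 0.1.

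*COL9A1* had 19612, 32423 and 3241 normalized counts in interzone 1, 2 and 3, against 28473, 37319 and 35330 in phalange 1, 2 and 3. Interzone 2 lay within the phalange range, interzone 1 somewhat below it, and interzone 3 far below both. Within interzone the libraries differed 10-fold, while the phalange libraries differed 1.31-fold. The means were 18426 ± 14627 in interzone and 33708 ± 4641 in phalange (SD, n = 3 each). The log2 difference was -1.40 in limma (SE 0.70, adjusted p = 0.848) and -0.87 in DESeq2 (adjusted p = 0.872). Without interzone 3 the limma difference shrank to -0.41, so the size of the value rested on that library. The exact permutation p was 0.2.

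*COL9A3* followed a similar course, with 7076, 15202 and 830 normalized counts in interzone 1, 2 and 3, against 12369, 23106 and 22941 in phalange 1, 2 and 3. Interzone 2 exceeded phalange 1, and interzone 3 was the lowest library by a wide margin. Within interzone it had the widest range of the 5 genes, 18.3-fold, while its range within phalange was 1.87-fold. The means were 7703 ± 7206 in interzone and 19472 ± 6152 in phalange (SD, n = 3 each). The log2 difference was -2.07 in limma (SE 0.89, adjusted p = 0.755), -1.34 in DESeq2 (adjusted p = 0.949) and -0.85 in limma without interzone 3. The exact permutation p was 0.2.

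The order of the libraries was largely shared among the 5 genes. Interzone 2 was the highest interzone library and phalange 2 the highest phalange library for all 5, a combination seen in 12.2% of all tested genes. Interzone 3 was the lowest of the 6 libraries for 4 of the 5 genes and for 17.2% of all tested genes, the exception being *COL9A2*, which was lowest in interzone 1. Interzone 2 and phalange 2 were also the libraries of each tissue with the lowest summed blood cell markers, and interzone 3 had the highest. The part of blood and of muscle in these levels was not tested. Together the 5 genes took 0.215%, 0.353% and 0.0364% of the reads on genes in interzone 1, 2 and 3, and 0.354%, 0.504% and 0.471% in phalange 1, 2 and 3. In every library most of these reads fell on *COL9A1* and *COL9A3*, so the shares say little about the other genes. In interzone 3 these genes held 3444 and 882 of 4930 reads. By level, the row of *COL2A1* ranked 1096, 812 and 929 in phalange 1, 2 and 3, against 33, 23 and 28 for *COL9A1*. Whether each row holds all reads of its gene was not tested, so the shares need not be those of the genes. The lowest count behind any value of the 5 genes was 121 reads, for *COL27A1* in interzone 3.

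Whether the other genes departed from *COL2A1* was examined by the ratio of their normalized counts within a library, which does not depend on the scaling of libraries. The size of such a ratio also reflects the length of each gene and the share of its reads that its row holds. That share was not tested, so only the change of a ratio between libraries was read. The ratio of *COL9A1* to *COL2A1* was 37.3, 36.6 and 11.1 in interzone 1, 2 and 3, against 11.8, 12.1 and 12 in phalange 1, 2 and 3. It was nearly constant in phalange, higher in interzone 1 and 2, and just below the phalange range in interzone 3. The log2 ratio was 1.05 higher in interzone on average (exact permutation test, p = 0.4), with an SD over libraries of 1.00 in interzone and 0.02 in phalange, and the difference was 1.63 without interzone 3.

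The ratio of *COL9A3* to *COL2A1* showed the same split of interzone libraries, with 13.5, 17.2 and 2.85 in interzone 1, 2 and 3, against 5.12, 7.49 and 7.78 in phalange 1, 2 and 3. Interzone 1 and 2 were above the phalange range and interzone 3 below it. The log2 ratio differed by 0.38 on average (exact permutation p = 0.8), and this difference turned to -0.11 without interzone 2 and was 1.19 without interzone 3.

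For *COL9A2* the ratio to *COL2A1* was 0.287, 0.476 and 0.558 in interzone 1, 2 and 3, against 0.196, 0.382 and 0.239 in phalange 1, 2 and 3, and here interzone 3 was the highest. The tissues overlapped, with a mean log2 difference of 0.70 (exact permutation p = 0.2). For *COL27A1* the ratio was 0.376, 0.354 and 0.39 in interzone 1, 2 and 3, against 0.269, 0.327 and 0.148 in phalange 1, 2 and 3. Every interzone library was above every phalange library, with a log2 difference of 0.67 (exact permutation p = 0.1, the smallest possible), which became 0.33 without phalange 3. For these 4 ratios an exact permutation test of 3 against 3 libraries cannot reach p under 0.05, so its p-values do not show that the genes changed alike.

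**Figure D2:**
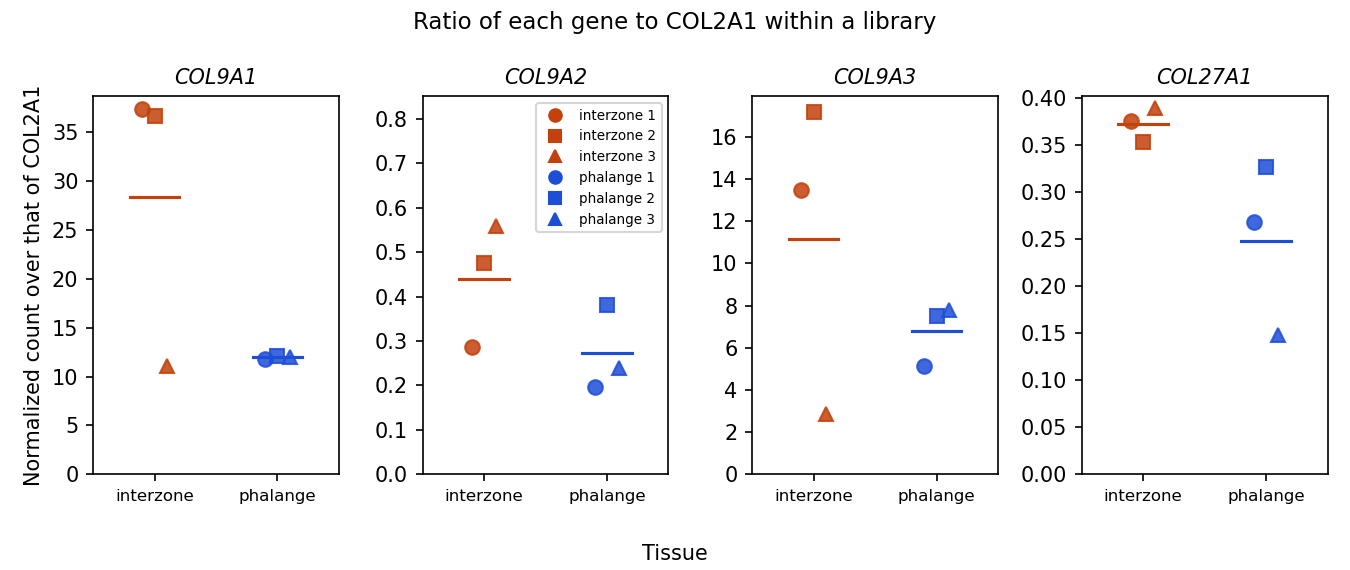
Ratio of the normalized count of each gene to that of *COL2A1* in the same library (linear axes from 0, a scale for each panel), interzone in orange and phalange in blue, with horizontal lines at the means. The ratio of *COL9A1* is 37.3 and 36.6 in interzone 1 and 2 but 11.1 in interzone 3, beside 11.8 to 12.1 in phalange.

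The genes most like each cartilage collagen were found by the root mean square (RMS) difference of log2(normalized count + 1) over the 6 libraries, each gene centred on its own mean, among the 7862 other genes that averaged 100 normalized counts or more. The measure covers differences both between and within the tissues. Nearest to *COL2A1* was a gene with no symbol in the table (ENSGALG00000005180, RMS 0.25), with 2467, 3184 and 1228 normalized counts in interzone 1, 2 and 3, against 6828, 9701 and 9995 in phalange 1, 2 and 3. Next came C9H2ORF82 (0.26), listed by RefSeq as a synonym of *SNORC*, a membrane proteoglycan of chondrocytes. It was followed by *PDPN* (0.30), which encodes the membrane glycoprotein podoplanin, by *CYTL1* (0.34), a secreted protein made by chondrocytes, and by *STK10* (0.40), a serine/threonine kinase. *COL27A1* ranked 8 (0.48) and *COL9A2* ranked 13 (0.54), ahead of *COL9A1* at 67 (0.78) and *COL9A3* at 105 (0.86).

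*COL9A1* and *COL9A3* were closer to each other than either was to *COL2A1*. The gene nearest to both was *LECT1*, listed by RefSeq as a synonym of *CNMD* (chondromodulin, a cartilage protein that inhibits vessel growth), at an RMS of 0.20 from *COL9A1* and 0.45 from *COL9A3*. *LECT1* had 9627, 17472 and 2193 normalized counts in interzone 1, 2 and 3, against 15506, 25740 and 24242 in phalange 1, 2 and 3, with the same drop in interzone 3. For *COL9A1* the list went on with *TAF1D* (0.31), *SLIT1* (0.33), *CSGALNACT1* (0.34), an enzyme of chondroitin sulfate synthesis, and *DMD* (0.39), and *COL9A3* ranked 15 (0.46). For *COL9A3* it went on with *COL9A1* itself (0.46), *SLIT1* (0.47), *LIPG* (0.48) and *NFATC2* (0.49).

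Nearest to *COL9A2* were *FGFR3* (0.28), the receptor that restrains chondrocyte proliferation, *CYTL1* (0.31), LOC107052240 (identifier ENSGALG00000037717, 0.34), *GLI1* (0.35), a target of Hedgehog signalling, and *RAB3IP* (0.37). *GLI1* was also the gene nearest to *COL27A1* (0.21), before *PDPN* (0.27), *CHID1* (0.31), *STK10* (0.33) and *TRPV4* (0.33), a calcium channel of chondrocytes. *COL9A2* was far closer to *COL27A1* (0.44, rank 12) than to its partner chains *COL9A1* (0.87, rank 579) and *COL9A3* (1.04, rank 2456).

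The table held 26 other collagen genes, of which 20 passed the filter. Their median log2 difference was 0.23, against -1.78 for the 5 cartilage collagens and -0.00 for all tested genes, and 12 were above and 8 below 0. Some of these 8 lay as low as the cartilage collagens or lower. They were *COL24A1* (-3.49, SE 1.56), *COL13A1* (-2.76, SE 1.62), *COL22A1* (-1.65, SE 0.44), *COL4A1* (-1.49, SE 0.64) and *COL4A2* (-1.42, SE 1.12). Of these, *COL13A1*, *COL4A1* and *COL4A2* overlapped between the tissues, as did *COL9A1* and *COL9A3*, and only *COL22A1* was called by DESeq2. A limma difference of this size was thus not particular to the cartilage collagens, but most of these values were uncertain. Every interzone library was above every phalange library for 3 of the 20 and below for 2, while 15 overlapped. Over all tested genes the shares were 5.86% above and 5.11% below. Without interzone 1, an alternative chosen after seeing the data, 5 of the 20 lay below, against 9.9% of all tested genes in that comparison of 2 with 3 libraries. With any other single library left out, 2 or 3 of the 20 lay below, against 8.85% to 11% of all tested genes. None was called by limma. DESeq2 called 3, *COL3A1* and *COL20A1* higher and *COL22A1* lower in interzone. Of the genes with a DESeq2 adjusted p, 0.906% were called higher and 0.477% lower.

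**Figure D3:**
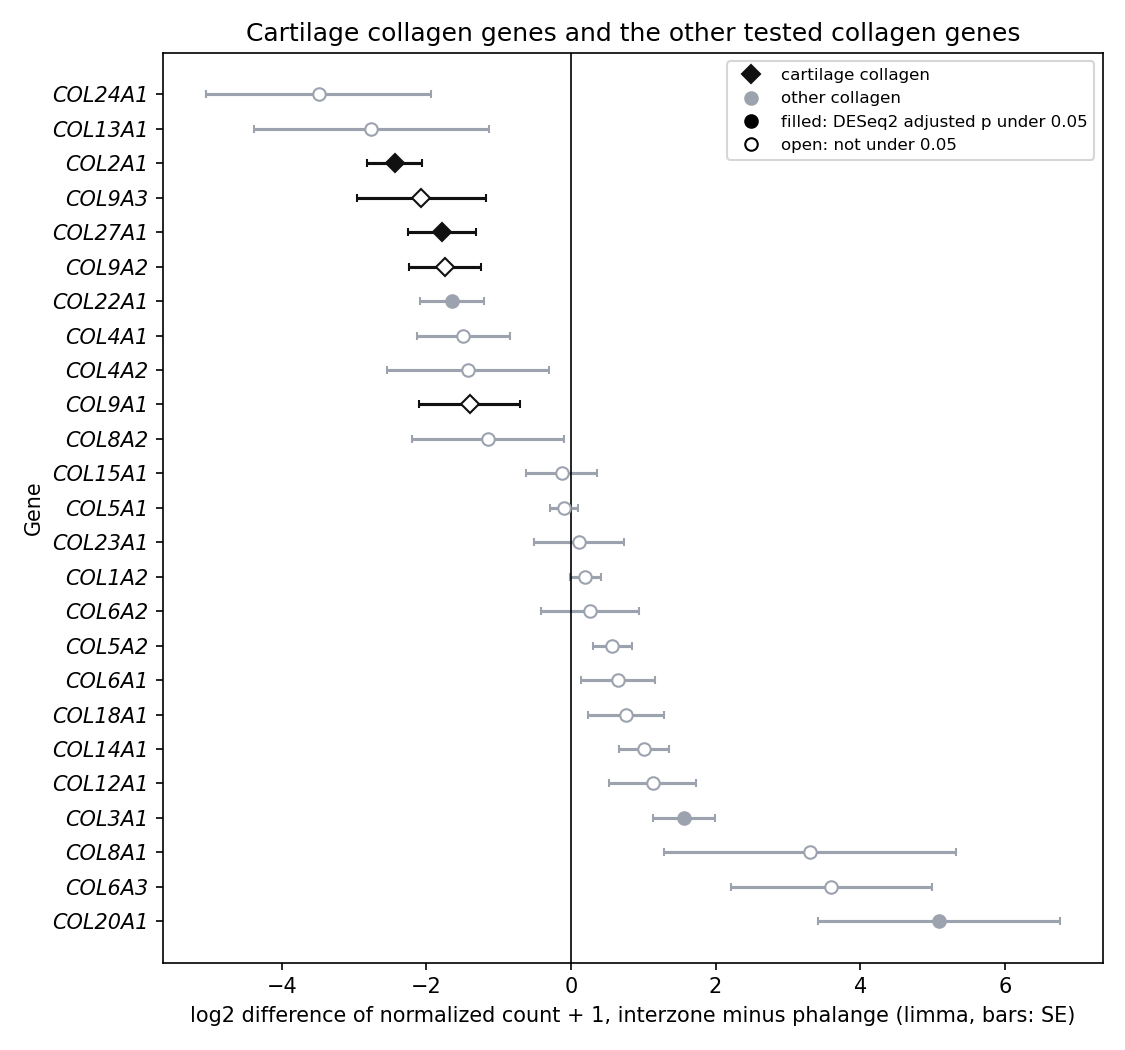
Log2 difference of normalized count + 1, interzone minus phalange, from limma with its SE (horizontal axis) for the 5 cartilage collagens (black diamonds) and the 20 other tested collagen genes (grey circles), with filled symbols where the adjusted p of DESeq2 was under 0.05. The cartilage collagens lie between -2.44 and -1.40, as do *COL22A1*, *COL4A1* and *COL4A2*, while *COL24A1* (-3.49) and *COL13A1* (-2.76) lie below that range. The values of *COL20A1*, listed at 0 in phalange, and of *COL8A1* depend on the pseudocount. *COL24A1* was listed at 0 in interzone 3 and *COL13A1* at 0 in interzone 2.

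Of the other fibrillar collagens, 6 of 8 listed had a row and 5 were tested, with a median log2 difference of 0.20. *COL24A1* had 44.7, 63 and 0 normalized counts in interzone 1, 2 and 3, against 68.9, 490 and 119 in phalange 1, 2 and 3, without overlap. Its log2 difference was -3.49 in limma (SE 1.56, adjusted p = 0.786), and DESeq2 did not call it (adjusted p = 0.561). *COL3A1*, which forms thin fibrils in loose connective tissue, had 4182, 8524 and 3368 normalized counts in interzone 1, 2 and 3, against 2565, 963 and 1902 in phalange 1, 2 and 3, so that no library overlapped. Its log2 difference was 1.56 in limma (SE 0.43, adjusted p = 0.499), and DESeq2 called it higher in interzone (adjusted p = 0.0394), but not without interzone 1 (0.0593), interzone 2 (0.323), phalange 2 (0.219) or phalange 3 (0.115). *COL1A2*, a chain of collagen I, was alike in both tissues within the spread, with 44356 to 76886 in interzone and 48906 to 55450 in phalange (log2 difference 0.20, SE 0.21, adjusted p = 0.962 in limma). The row of its partner chain *COL1A1* held only 0.894 to 1.88 normalized counts in interzone and 2 to 10.5 in phalange, so the level of a row in this table need not be that of its gene.

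Of the other FACIT collagens, 5 of 7 listed had a row and 4 were tested, with a median log2 difference of 1.07. *COL22A1*, a collagen of tissue junctions, had 133, 98.1 and 92.2 normalized counts in interzone 1, 2 and 3, against 436, 410 and 213 in phalange 1, 2 and 3, all lower in interzone. Its log2 difference was -1.65 (SE 0.44, limma adjusted p = 0.497), and the call by DESeq2 (adjusted p = 0.0149) was lost without interzone 2 (0.103), interzone 3 (0.0844), phalange 1 (0.148) or phalange 2 (0.175). *COL20A1* had 121, 67.1 and 3.76 normalized counts in interzone 1, 2 and 3 and was at 0 in all 3 phalange libraries. Taking a count of 0 to allow up to 3 reads per library, it was at least 20.1-fold higher in interzone, and at least 10.6-fold higher without interzone 1. DESeq2 called it (adjusted p = 0.00324), but not without interzone 1 (0.264).

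Of the network, beaded and other collagens, 15 of 21 had a row and 11 were tested, with a median of 0.11. None was called by limma or DESeq2, and all 11 overlapped. Both outcomes were common, since only 5.11% of all tested genes lay below and 5.86% above without overlap. Of the genes with a DESeq2 adjusted p, 0.477% were called lower and 0.906% higher in interzone. The largest limma differences were those of *COL6A3*, a chain of the beaded collagen VI, at 3.60 (SE 1.39, adjusted p = 0.704) and of *COL8A1* at 3.31 (SE 2.02, adjusted p = 0.897). *COL8A1* was listed at 0 in interzone 2, phalange 1 and phalange 3. Its value was 3.71 with a pseudocount of 0.5 and 1.71 with a pseudocount of 10. *COL6A3* had 898, 3464 and 228 normalized counts in interzone 1, 2 and 3, against 459, 8.39 and 91.9 in phalange 1, 2 and 3, so interzone 3 fell below phalange 1.

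Proteins that bind cartilage fibrils or fill the space between them gave a mixed picture. Of 19 listed, 16 had a row under the listed symbol and all 16 were tested, and the median log2 difference was -0.46. These counts leave out *SNORC* and *CNMD*, whose rows carry the synonyms C9H2ORF82 and *LECT1*. Both were lower on average in interzone. The log2 difference was -2.40 for C9H2ORF82 (DESeq2 adjusted p = 0.00618) and -1.57 for *LECT1* (DESeq2 adjusted p = 0.58). Of the 16, none was called by limma, while DESeq2 called 4 lower and 1 higher in interzone, against 0.477% and 0.906% of the genes with a DESeq2 adjusted p. In 5 of the 16 every interzone library was below every phalange library, and in 2 above, against 5.11% and 5.86% of all tested genes.

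*MATN1*, which encodes the cartilage matrix protein matrilin-1, had 1045, 1780 and 623 normalized counts in interzone 1, 2 and 3, against 6418, 18820 and 15769 in phalange 1, 2 and 3. *EPYC*, a small proteoglycan of growing cartilage, had 42, 284 and 176 in interzone, against 2694, 6257 and 5623 in phalange. *HAPLN1*, the link protein that fixes aggrecan to hyaluronan, had 560, 580 and 405 in interzone, against 1459, 2021 and 3023 in phalange. These 3 genes showed no overlap, and DESeq2 called them with adjusted p of 5.3e-11, 2.6e-13 and 6.5e-07 in the order given, as well as with each library left out. In limma their adjusted p was 0.0695, 0.0695 and 0.119. *COMP*, a pentameric protein that binds collagens II and IX, had 59, 76.4 and 7.53 in interzone, against 170, 326 and 931 in phalange (DESeq2 adjusted p = 0.0126, but 0.351 without phalange 3). *CILP*, a protein of the joint cartilage layer, was higher in interzone, with 79.5, 53.7 and 28.2 normalized counts there and 0 in all 3 phalange libraries. It was at least 16.9-fold higher (DESeq2 adjusted p = 3.5e-04, but 0.0856 without interzone 1).

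**Figure D4:**
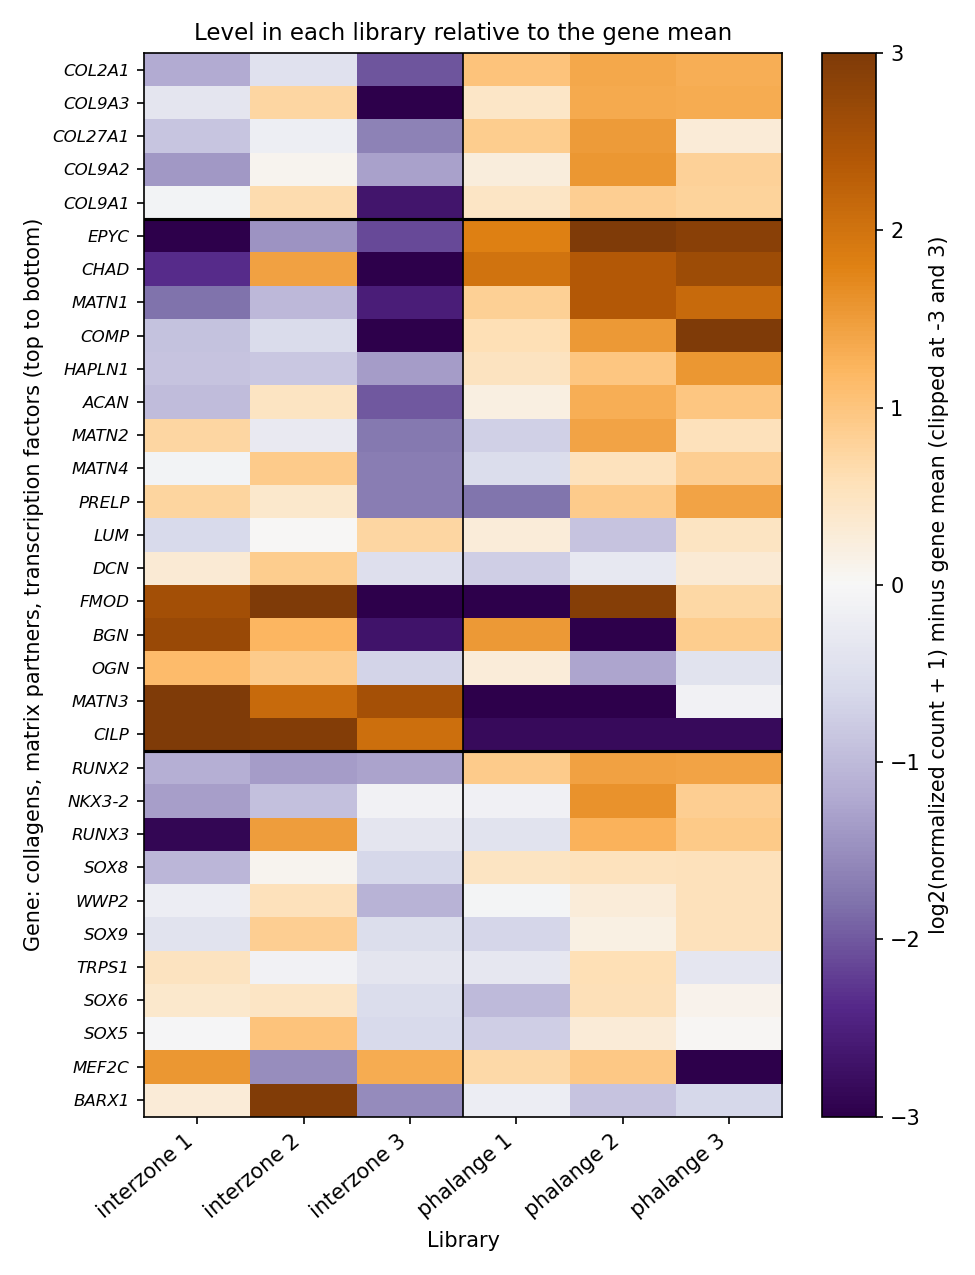
Level in each library relative to the mean of the gene over the 6 libraries, as log2(normalized count + 1) and clipped at -3 and 3 (colour). Rows hold the 5 cartilage collagens, 16 fibril surface and matrix partners and 11 transcription factors and other regulators. They lie in blocks from top to bottom, each sorted by its log2 difference. Columns hold the 3 interzone libraries left of the 3 phalange libraries. The collagens are below their mean in interzone 3 and above it in every phalange library.

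Known transcription factors and other regulators of cartilage collagen genes, including the SOX trio that binds the *COL2A1* enhancer, were listed with 15 symbols. Of these, 12 had a row and 11 were tested. Their median log2 difference was -0.04, with 5 above and 6 below 0. Every interzone library was below every phalange library for 2 of the 11 and above for 0, against 5.11% and 5.86% of all tested genes. *SOX9* had 5401, 12879 and 5013 normalized counts in interzone 1, 2 and 3, against 4541, 8037 and 10460 in phalange 1, 2 and 3. The groups overlapped, and the log2 difference was -0.04 (SE 0.41, adjusted p = 1 in limma). *SOX5* and *SOX6* overlapped too, with log2 differences of 0.26 (SE 0.43) and 0.22 (SE 0.47), so none of the trio had a difference larger than its error. *SOX8* had 338, 744 and 451 normalized counts in interzone 1, 2 and 3, against 980, 1013 and 1026 in phalange 1, 2 and 3. Its log2 difference was -1.05 (SE 0.32, limma adjusted p = 0.544). *NKX3-2* overlapped, with a log2 difference of -1.56 (SE 0.51, limma adjusted p = 0.595). The SOX trio, *SOX8* and *NKX3-2* were named after their values were seen.

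*RUNX2*, a driver of chondrocyte maturation and bone formation, was the only gene of this list called by limma. It had 729, 631 and 653 normalized counts in interzone 1, 2 and 3, against 2980, 4343 and 4234 in phalange 1, 2 and 3, with little spread in either tissue. Its log2 difference was -2.50 (SE 0.22, limma adjusted p = 0.0225), close in size to that of *COL2A1*. The call by DESeq2 (adjusted p = 4.5e-23) held with each library left out, whereas that by limma was lost without interzone 1 (0.113), interzone 2 (0.059), interzone 3 (0.11), phalange 2 (0.23) or phalange 3 (0.17).

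Genes for folding, processing and cross-linking of collagen were listed with 34 symbols, of which 28 had a row and 25 were tested. No gene was called by limma or DESeq2, and the median log2 difference was -0.21, with 7 above and 18 below 0. Calls were rare among all genes too (DESeq2, 0.477% lower and 0.906% higher in interzone). The largest limma differences belonged to genes at 0 in several libraries, *P3H2* at 3.33 (SE 2.28, adjusted p = 0.92), a prolyl hydroxylase, and *ADAMTS2*, a propeptidase found in interzone 3 only, with 65 reads. Every interzone library was above every phalange library for 3 of the 25 and below for 1, against 5.86% and 5.11% of all tested genes. The summed level of the list was 64569 to 119426 in interzone and 87134 to 109603 in phalange.

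Collagen receptors overlapped between the tissues in all 6 genes tested of 7 listed, with a median of 0.03 and no call by limma or DESeq2. Most genes overlapped likewise, since 5.11% of all tested genes lay below and 5.86% above without overlap. DESeq2 called 0.477% of the genes with an adjusted p lower and 0.906% higher in interzone. The largest differences were 1.44 for *ITGA1* (SE 0.66, limma adjusted p = 0.795) and 0.71 for *ITGA2* (SE 1.11, limma adjusted p = 0.981), integrin chains that pair with beta 1. Of 9 listed proteases that can degrade matrix, 7 had a row and 5 were tested, with a median of 0.00. *MMP9*, a gelatinase that degrades denatured collagen, had 88.5, 185 and 82.8 normalized counts in interzone 1, 2 and 3, against 5.99, 0 and 0 in phalange 1, 2 and 3. Its call by DESeq2 (adjusted p = 7.4e-04) was lost without interzone 2 (0.11), and limma gave an adjusted p of 0.249. *MMP13*, the main collagenase of cartilage, was listed at 0 in 5 of the 6 libraries and had 17.9 normalized counts in interzone 1.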

How the data were processed

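RNA-seq was analysed in 3 interzone and 3 phalange libraries, grouped by the sample labels. The authors prepared them with Smart-seq2 (18 cycles of preamplification and 14 of library PCR), sequenced single reads of 50 bp, trimmed them with Trimmomatic, mapped them with STAR to *Gallus gallus* 6.0, counted them with featureCounts on Ensembl genes and deposited counts divided by DESeq2 size factors, a signal without whole numbers. Strandedness is not given in the sources used here. Every value (100%) in the 6 libraries was a whole multiple of the value of 1 read within 0.01, so reads were recovered. PCR copies count as reads, so limits on a count of 0 (3 reads) cover counting error only.

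log2(normalized count + 1) was tested in R 4.3.3 by limma 3.58.1 with a trend, on genes averaging 10 or more, with Benjamini-Hochberg adjustment over all tested genes. On this scale the fold change of a gene at 0 throughout a tissue can be understated. A 0 in a single library can instead enlarge it. *COL24A1*, at 0 in interzone 3, had a log2 difference of -3.49 in limma and -2.65 in DESeq2. The unit called for a test on log values, while edgeR 4.0.16 and DESeq2 1.42.0 on recovered reads served as alternatives. DESeq2 left 3185 genes with an adjusted p of NA. The methods were tested on simulated counts whose spread was fixed and not matched to these libraries. That test therefore does not show how many changes they can find here. The p-values of limma, edgeR and DESeq2 set a difference against the spread between libraries, which is estimated with help from all fitted genes.

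The genes and gene lists were chosen with earlier results of these data known. The 5 cartilage collagens are given with every library's value. Genes of the other lists are named where limma or DESeq2 called them, and otherwise the 2 with the largest difference, while marker lists of other tissues are given as sums. *MYL1*, *MYH1E* and some other collagens, *COL24A1* among them, were named outside this rule. Exact permutation tests and RMS differences used scipy 1.17.1, numpy 2.4.6 and pandas 2.3.3 under Python 3.11.15, and matplotlib 3.10.9 drew the plots. The H3K27ac (3 libraries per tissue) and H3K4me1 (2 per tissue) peak lists and sequences of the genes were not used here. Synonyms came from a RefSeq table of GRCg7b.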

Additional observations from a re-analysis of the deposited data

How the results depend on the processing

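All 5 cartilage collagens stayed lower in interzone under all 22 alternatives each. No alternative changed the call of *COL9A1* or *COL9A3*. DESeq2 on the recovered reads turned *COL2A1* (-2.31 on the same genes and on all genes) and *COL27A1* (-1.75 on both) into calls, 2 of the 5 genes, while edgeR, TMM factors, other pseudocounts and other filters called none. With libraries left out in limma or DESeq2, log2 differences lay between -2.84 and -1.99 (*COL2A1*), -2.07 and -0.37 (*COL9A1*), -2.32 and -1.27 (*COL9A2*), -2.95 and -0.80 (*COL9A3*), and -2.16 and -1.39 (*COL27A1*), and between 0 and 3 of the 5 were called. Over all genes, 3 were called lower and 0 higher in interzone by limma. These numbers became 5 and 1 with a pseudocount of 10, 5 and 2 with a mean of at least 100, 2 and 9 without a trend, 1 and 0 with edgeR, 48 and 104 with DESeq2 on the same genes, and 61 and 116 with DESeq2 on all genes. With a library left out they lay between 0 and 113 lower and between 0 and 217 higher, the larger values being those of DESeq2. The cause was not tested.

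With the replicate number as a block (replicate block) in limma, 1 gene was called lower and 0 higher, and none of the 5. Adjusted p was 0.17 for *COL2A1*, with a log2 difference of -2.44, and the call of *RUNX2* was lost (0.0674), as it was without a trend (0.0836). For *COL9A1*, *COL9A2*, *COL9A3* and *COL27A1* the adjusted p with the block was lower than in the main test, at 0.698, 0.268, 0.642 and 0.268. Same-numbered libraries correlated at 0.192, 0.080 and -0.017 in their deviations from the tissue means. Of the interzone libraries, 2 of 3 matched their own number best. These values do not settle whether the numbers mark pairs. The paper joins RT-qPCR samples of the same embryo, but the sources used here name no pairs among the RNA-seq libraries. The main test therefore used no pairs. The ratio of *COL9A3* to *COL2A1* was the only one of 4 whose difference changed sign, ranging from -0.11 to 1.19 with a library left out. With a library left out of limma or DESeq2, the difference lay between -0.51 and 1.44 for *ITGA2* and between 0.00 and 7.38 for *ADAMTS2*. Of the 5 genes most like *COL2A1*, 4 stayed among the nearest 5 with a mean of at least 10 and all 5 with a pseudocount of 10.

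Leaving libraries out of DESeq2, and all alternatives for genes other than collagens II, IX and XXVII, were chosen after seeing the data. With 3 libraries per tissue no exact permutation test can pass 0.05, and the size of the differences of *COL9A1* and *COL9A3* rests on interzone 3.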
